A study of Arabidopsis thaliana with 6 samples.

Results

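The genes described here are the well-expressed transcripts that stood higher in SPT4-R3 seedlings than in wild-type seedlings of Arabidopsis thaliana. They were chosen by their measured levels. A probe set, the group of short probes that reads 1 transcript on the array, was taken when its log2 signal averaged at least 8 over the 3 wild-type arrays, averaged at least 1 more over the 3 SPT4-R3 arrays, and was higher on every SPT4-R3 array than on any wild-type array. A log2 difference of 1 is a 2-fold difference. This took 121 of the 22746 plant probe sets, or 1.81% of the 6701 that reached the wild-type limit. Because the comparison of the genotypes chose them, their differences are given as a description and carry no test.

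SPT4-R3 is a line in the Columbia accession (Col-0) whose SPT4 is the target of an RNA interference construct, and the wild type is unmodified Col-0. RNA came from the aerial parts of seedlings grown for 10 days on agar medium after 2 days of stratification, in long days, and taken 2 h after the lights came on. Each sample was read on 1 single-colour ATH1 array, with 3 arrays of SPT4-R3 and 3 of wild type. SPT4-R3 is 1 line, and the promoter of its construct was not stated in the labels. The labels call the samples biological replicates without saying that they were sown apart, so the spread and the p-values cover these samples alone.

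SPT4 is a small zinc-finger protein that pairs with the larger SPT5. The pair is conserved from yeast to plants and people, sits on RNA polymerase II while it elongates a transcript, and helps it move through the gene body.

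Over the plant probe sets the correlation between arrays was 0.998 to 0.999 within a genotype and 0.976 to 0.977 between genotypes, as a description. Array medians lay between 6.52 and 6.53 in SPT4-R3 and between 6.49 and 6.53 in wild type. The SPT4 gene with a probe set of its own, SPT4-1 (AT5G08565), read 5.0, 4.89 and 4.97 on the SPT4-R3 arrays, against 5.79, 6.05 and 6.03 on the wild-type arrays. All of its SPT4-R3 values were below all of its wild-type values, with a difference of -1.0 (SE 0.0753, limma adjusted p = 2.15e-06). The leaf markers RCA, LHCB4.1 and LHCB4.2, the 3 of 18 that could be matched, were bright, at 12.85 to 14.12 in SPT4-R3 and 13.73 to 14.39 in wild type. None of the 9 seed storage markers was matched, and of the 4 matched root markers PYK10 was bright, at 11.76 in SPT4-R3 and 11.77 in wild type, and the other 3 were between 4.22 and 5.15 in SPT4-R3 and between 4.23 and 5.14 in wild type. No root marker passed the test, while all 3 leaf markers were lower in SPT4-R3 (limma, differences of -0.27, -0.51 and -1.14, adjusted p = 0.00204, 1.41e-05 and 6.3e-08); their part in the results was not tested. The bioB, bioC and bioD hybridisation controls averaged 8.62 in SPT4-R3 and 9.01 in wild type without overlap (exact permutation test, two-sided, p = 0.1; this design can give no smaller value). Centred on those controls, the median of all plant probe sets was 0.39 higher in SPT4-R3, so every difference here is relative to the deposited scale. On the scale of the controls SPT4-1 was still lower, by less (difference -0.61, limma adjusted p = 1.48e-08). RCA and LHCB4.1 no longer passed (0.12 and -0.12, limma adjusted p = 0.255 and 0.269), and the rule took 497 probe sets. All 4 root markers were called higher, by 0.28 to 0.4, which restates the shift of 0.39 and is no result about roots. Centring gives every probe set of an array the same shift, and the fit counts its spread as if seen separately in each. The p-values on this scale are therefore too small: that of SPT4-1 shrank although its difference did too. Calls on this scale, here and below, are descriptions. The 3′ minus 5′ signal of 2 control transcripts, a sign of RNA integrity, averaged 1.1 in SPT4-R3 and 1.03 in wild type for GAPDH and 0.91 in SPT4-R3 and 0.89 in wild type for ubiquitin (exact permutation test, two-sided p = 0.4 and 0.6). Each of these averages joins 2 pairs of probe sets, and 3 of the 4 single pairs separated the genotypes without overlap, in both directions. The second GAPDH pair gave 0.63 in SPT4-R3 and 0.44 in wild type, the first ubiquitin pair 1.7 in SPT4-R3 and 1.49 in wild type, and the second ubiquitin pair 0.12 in SPT4-R3 and 0.28 in wild type (exact permutation test, two-sided p = 0.1 each). The first GAPDH pair gave 1.57 in SPT4-R3 and 1.61 in wild type (exact permutation test, two-sided p = 0.8), and the part of these controls in the results was not tested.

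**Figure D1:**
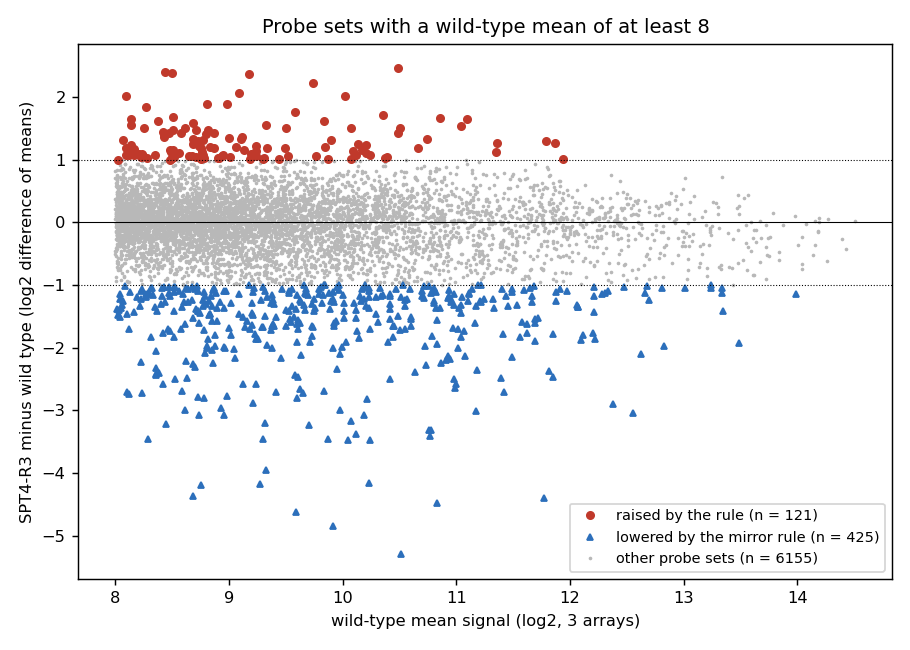
Each point is a probe set with a wild-type mean of at least 8; the horizontal axis is its wild-type mean log2 signal over 3 arrays and the vertical axis the SPT4-R3 mean minus the wild-type mean. The 121 raised probe sets (red circles) reach 2.46 above 0, the 425 lowered ones (blue triangles) reach 5.30 below it, and no raised one has a wild-type mean above 11.94.

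The 121 raised probe sets differed between genotypes by 1.0 to 2.46, with a median of 1.19, or 2.28-fold. 93 of them were raised by 1 to 1.5, 20 by 1.5 to 2 and 8 by 2 or more. 40 were raised by under 1.1 and thus lie close to the limit of the rule. The same rule turned round took 425 probe sets that were at least 1 lower in SPT4-R3, or 6.34% of the well-expressed ones. The lowered set had a median of -1.41 and reached -5.30, a 39.4-fold difference. Of the raised set 6.61% differed by 2 or more, against 21.9% of the lowered set. Which set is larger depends on the scale: on that of the bioB, bioC and bioD controls 497 probe sets were raised and 207 lowered, and 3.42% of the raised and 29.5% of the lowered differed by 2 or more. In bulk tissue a change in the number of cells of a type and a change in RNA per cell cannot be told apart.

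The arrays of each genotype lay close together for these probe sets. The median signal of the 121 was 10.19, 10.20 and 10.21 on the SPT4-R3 arrays, against 8.83, 8.89 and 8.91 on the wild-type arrays. The SD over 3 arrays had a median of 0.0551 in SPT4-R3 and 0.0529 in wild type and was at most 0.168 in SPT4-R3 and 0.21 in wild type. Over all well-expressed probe sets the median was 0.0529 in SPT4-R3 and 0.0577 in wild type. The lowest SPT4-R3 value stood above the highest wild-type value by at least 0.75 and by a median of 1.09. Over all 6701 well-expressed probe sets limma called 33.9% higher and 37.2% lower in SPT4-R3, and 37.6% had every SPT4-R3 value above every wild-type value; all 121 meet the last condition because the rule demands it, and nothing is read from that.

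By wild-type level on the deposited scale, the raised share was highest in the dimmest range, and the lowered share was highest at 11 to under 12 and smaller again above it. At wild-type means of 8 to under 9, 67 of 2916 probe sets were raised (2.3%) and 125 lowered (4.29%). At 9 to under 10 the shares were 1.48% raised and 6.23% lowered, and at 10 to under 11 they were 1.83% raised and 9.32% lowered. At 11 to under 12 they were 1.38% raised and 10.8% lowered. Of the 344 brightest, at 12 and above, none was raised and 30 were lowered (8.72%). These shares describe 1 comparison and were not tested.

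**Figure D2:**
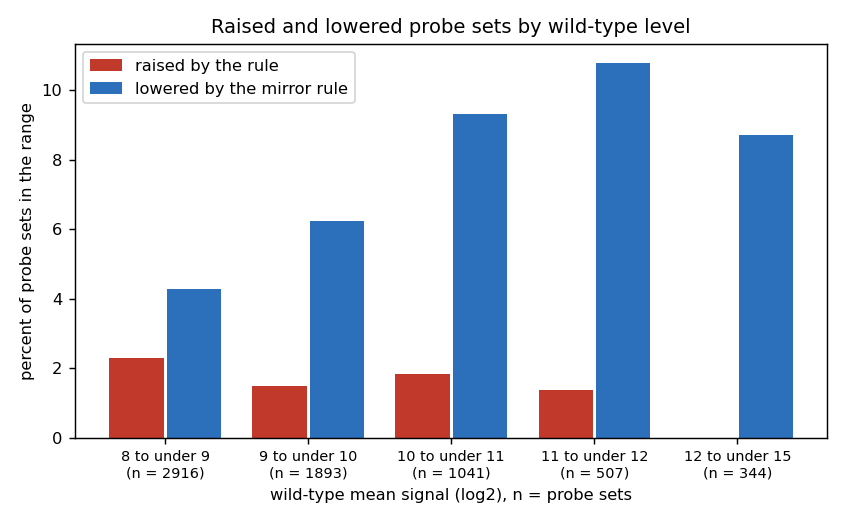
Bars give the percentage of well-expressed probe sets raised (red, left bar) or lowered (blue, right bar) by at least 1 log2 unit in SPT4-R3, by wild-type mean log2 signal, with the number of probe sets under each range. The raised share stays between 1.38% and 2.3% below a signal of 12 and is 0 above it, and the lowered share runs between 4.29% and 10.8%.

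The annotation used here lists 1 gene for 47 of the 121 probe sets, several genes for 4 and none for 70. Functions can therefore be described for 47 genes, of which 11 carry a symbol and the others only a locus number; the roles given for them are general background and not taken from the files. The probe set with the largest difference is among the unlisted ones. It read 12.92, 12.95 and 12.98 on the SPT4-R3 arrays, against 10.58, 10.48 and 10.41 on the wild-type arrays, a difference of 2.46. Of the 8 probe sets raised by 2 or more, 4 have a gene name: the carboxypeptidases SCPL49 and scpl35, the lectin AT3G16530 and the chlorophyll enzyme PORB. 36 of the 47 named genes share a broad function with at least 1 other, in 10 groups drawn up after the genes were known. The other 11 were placed in no group.

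**Figure D3:**
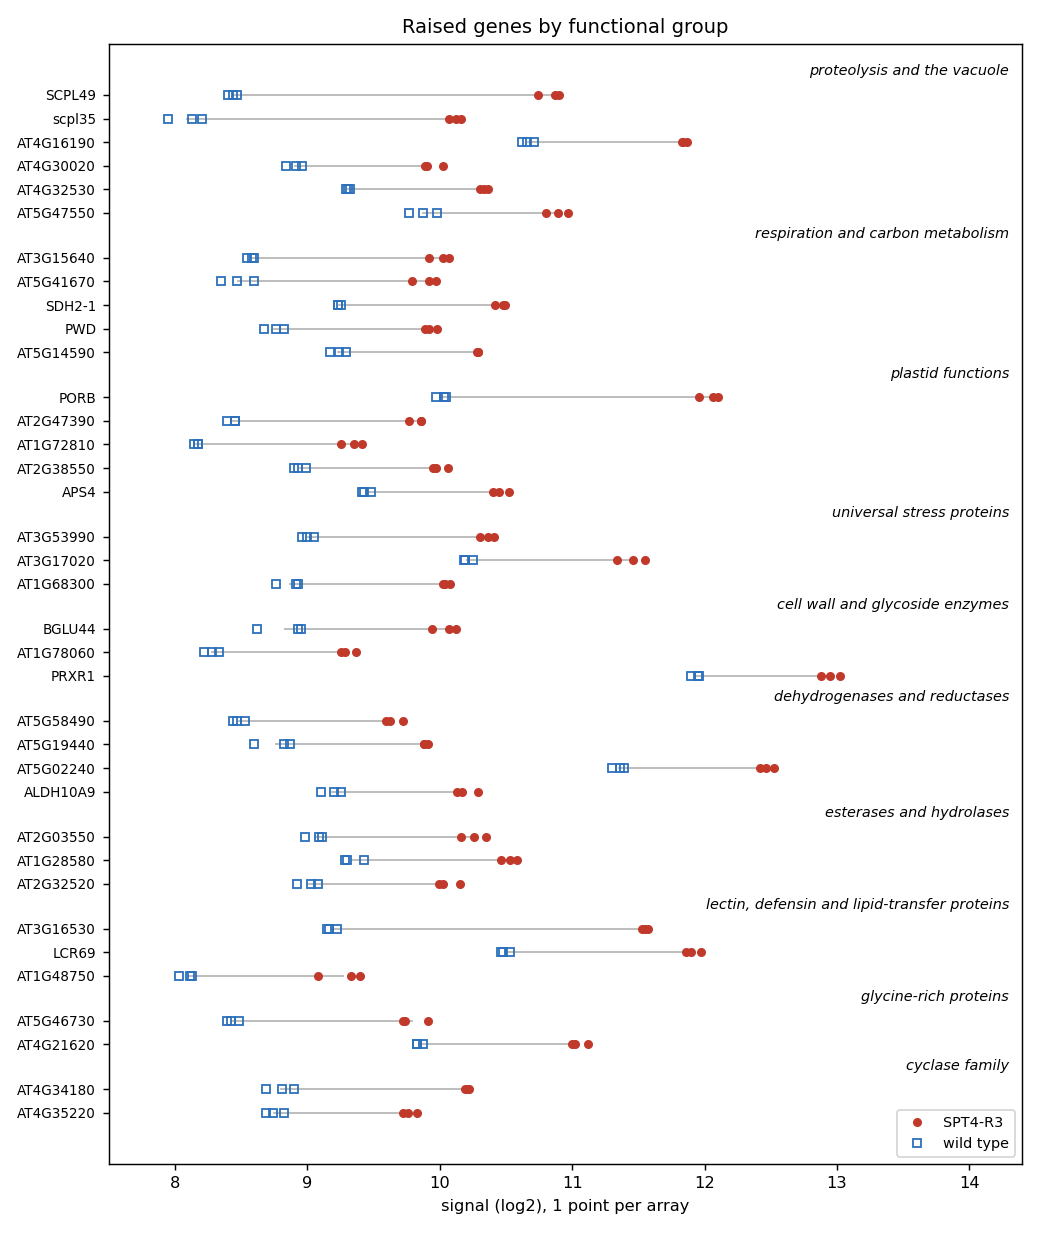
Log2 signals of the 36 raised genes that fall into functional groups, with 1 point per array: filled red circles are the 3 SPT4-R3 arrays, open blue squares the 3 wild-type arrays, and grey lines join the means. The genotypes do not overlap for any gene, as the rule demands, and the widest separations are those of SCPL49 (2.40), AT3G16530 (2.37), scpl35 (2.02) and PORB (2.02).

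Proteolysis and the vacuole were represented by 6 genes. SCPL49, a serine carboxypeptidase of the carboxypeptidase Y type that trims proteins in the vacuole, read 10.90, 10.74 and 10.87 on the SPT4-R3 arrays, against 8.40, 8.47 and 8.44 on the wild-type arrays. That is a difference of 2.40, or 5.28-fold, the largest of any gene with a name. The related carboxypeptidase scpl35 read 10.07, 10.12 and 10.16 in SPT4-R3, against 8.13, 8.20 and 7.95 in wild type, a difference of 2.02. Its wild-type mean of 8.09 is close to the limit of the rule. AT4G16190, a cysteine protease of the papain type, read 11.84, 11.87 and 11.83 in SPT4-R3 and 10.62, 10.66 and 10.71 in wild type, and was 1.18 higher. The cystatin AT5G47550 belongs to the inhibitors of such proteases, so a protease and a member of its inhibitor family are both in the set. It read 10.80, 10.89 and 10.97 in SPT4-R3, against 9.98, 9.87 and 9.77 in wild type, and with a difference of 1.01 it is among the 3 named genes nearest the limit. AT4G30020, a subtilisin-like protease, was 1.03 higher, at a mean of 9.94 in SPT4-R3 and 8.90 in wild type. AT4G32530, a proteolipid subunit of the proton pump that acidifies the vacuole, read 10.36, 10.33 and 10.30 in SPT4-R3, against 9.32, 9.31 and 9.29 in wild type. Its 1.02 difference came with one of the tightest sets of arrays, with an SD of 0.03 in SPT4-R3 and 0.0153 in wild type.

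The other measured genes of these families were tested over the whole array, where limma called 26.4% of all plant probe sets higher and 23.5% lower, or 49.9% in either direction. That was 6007 higher and 5344 lower on the deposited scale, and 17406 higher and 1589 lower on the scale of the bioB, bioC and bioD controls. Most plant probe sets were thus called higher on the second scale. Counts of higher genes on it, here and below, follow that shift and are no result about a family. The families and pathways named beside the raised genes were assembled once the raised genes were known, and their counts are descriptions. The rule had already taken out every well-expressed gene raised by 1 or more, so an other gene with a wild-type mean of at least 8 could rise only by less than that; the sizes and medians of the others are held down by this and are not set against those of the raised genes. Of 8 other subunits of the vacuolar proton pump, 7 were higher in SPT4-R3, none was lower and 1 did not pass, with a median difference of 0.41. The membrane subunits VHA-A3 and VHA-A2 rose by 0.60 (SE 0.055, limma adjusted p = 8.55e-06) and 0.45 (SE 0.0518, limma adjusted p = 4.83e-05), while VHA-A1 differed by 0.13 (limma adjusted p = 0.0947); on the scale of the bioB, bioC and bioD controls it passed too (0.52, limma adjusted p = 1.28e-06), and all 8 were higher. The pump list has 28 entries and only 9 could be matched, so most of the complex is not described. Among papain-type proteases and cystatins all 3 other matched genes were higher. The cystatin CYS1 rose by 0.96 (SE 0.0701, limma adjusted p = 1.76e-06) and reached 11.33 in SPT4-R3, against 10.37 in wild type. The cystatin AT5G05110 rose by 0.87 (SE 0.0745, limma adjusted p = 5.43e-06), and the protease AT2G21430 by 0.35 (SE 0.0656, limma adjusted p = 0.00123).

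The serine carboxypeptidase-like family was mixed on the deposited scale. Of its 27 other measured genes 4 were higher, 6 were lower and 17 did not pass, with a median difference of -0.09. On the scale of the bioB, bioC and bioD controls, where most plant probe sets were called higher, 22 were higher and 1 lower. Of the 17 that did not pass, 14 averaged below 6 in both SPT4-R3 and wild type, so a change in them could be missed. SCPL34 lay just outside the rule, at 9.72 in SPT4-R3 and 8.72 in wild type (difference 0.99, SE 0.0543, limma adjusted p = 2.37e-07). The largest move of the family went the other way. scpl31 fell to 4.11 in SPT4-R3, against 6.61 in wild type (difference -2.49, SE 0.161, limma adjusted p = 7.33e-07), and it was lower on every scale tried.

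5 raised genes act in respiration and in the breakdown of carbohydrate. AT3G15640, a subunit of cytochrome c oxidase, which hands electrons to oxygen, read 9.92, 10.07 and 10.02 in SPT4-R3 and 8.60, 8.54 and 8.58 in wild type, a difference of 1.43. SDH2-1, the iron-sulphur subunit of succinate dehydrogenase, which links the citrate cycle to the electron transport chain, read 10.49, 10.42 and 10.48 in SPT4-R3, against 9.25, 9.23 and 9.23 in wild type. It was 1.23 higher. A second probe set assigned to SDH2-1 was dim, at 4.24, 4.12 and 3.99 in SPT4-R3 and 4.12, 4.08 and 4.12 in wild type, near the trp controls at 3.61 in SPT4-R3 and 3.62 in wild type, which match no plant transcript, and its difference of 0.01 did not pass (limma adjusted p = 0.92). AT5G14590, an isocitrate dehydrogenase of organelles that makes NADPH, read 10.29, 10.28 and 10.29 in SPT4-R3 and 9.24, 9.29 and 9.17 in wild type. The SPT4-R3 arrays had an SD of 0.00577, and the difference was 1.05. AT5G41670, the 6-phosphogluconate dehydrogenase of the oxidative pentose phosphate pathway, another source of NADPH, read 9.92, 9.79 and 9.97 in SPT4-R3, against 8.47, 8.60 and 8.35 in wild type. It was 1.42 higher. PWD (AT5G26570), the phosphoglucan water dikinase that primes starch granules for breakdown, read 9.98, 9.89 and 9.92 in SPT4-R3 and 8.67, 8.82 and 8.76 in wild type, a difference of 1.18.

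Most other matched citrate cycle genes were also higher in SPT4-R3. Of 8 other genes, including the isocitrate dehydrogenases outside the cycle, 7 rose and 1 did not pass, with a median difference of 0.70 and the same 7 higher on every scale tried. AT5G65750 and AT3G55410, the pair of genes for the E1 subunit of 2-oxoglutarate dehydrogenase, rose by 1.32 (SE 0.0821, limma adjusted p = 5.75e-07) and 0.72 (SE 0.0593, limma adjusted p = 4.11e-06). AT5G65750 stayed outside the rule because its wild-type mean was 6.70, against 8.02 in SPT4-R3. IDH-V, a catalytic subunit of the NAD-dependent isocitrate dehydrogenase, rose by 0.73 (SE 0.0542, limma adjusted p = 2.02e-06). cICDH, the cytosolic NADP enzyme and the brightest of them, had 13.73 in SPT4-R3 and 13.01 in wild type, a rise of 0.71 (SE 0.0576, limma adjusted p = 3.6e-06). Within succinate dehydrogenase, SDH2-2 rose by 0.68 (SE 0.0585, limma adjusted p = 5.62e-06) and the flavoprotein SDH1-1 by 0.67 (SE 0.0507, limma adjusted p = 2.21e-06). The exception SDH1-2 was dim, at 4.11 in SPT4-R3 and 4.30 in wild type, and its -0.19 did not pass (SE 0.0752, limma adjusted p = 0.0561), nor did its 0.2 on the scale of the bioB, bioC and bioD controls (limma adjusted p = 0.0631). 10 of 18 list entries were matched, all of them for succinate dehydrogenase, isocitrate dehydrogenases or 2-oxoglutarate dehydrogenase. The other steps of the cycle are not described.

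The other dehydrogenases of the pentose phosphate step were higher too. AT1G64190 rose by 0.68 (SE 0.066, limma adjusted p = 1.39e-05) and AT3G02360 by 0.41 (SE 0.0529, limma adjusted p = 9.77e-05). For starch, DPE1, the plastid disproportionating enzyme that recycles maltotriose, rose by 1.22 (SE 0.109, limma adjusted p = 7.01e-06) and stayed outside the rule with a wild-type mean of 7.10, against 8.33 in SPT4-R3. It was the only other matched gene of 15 entries for starch breakdown.

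**Figure D4:**
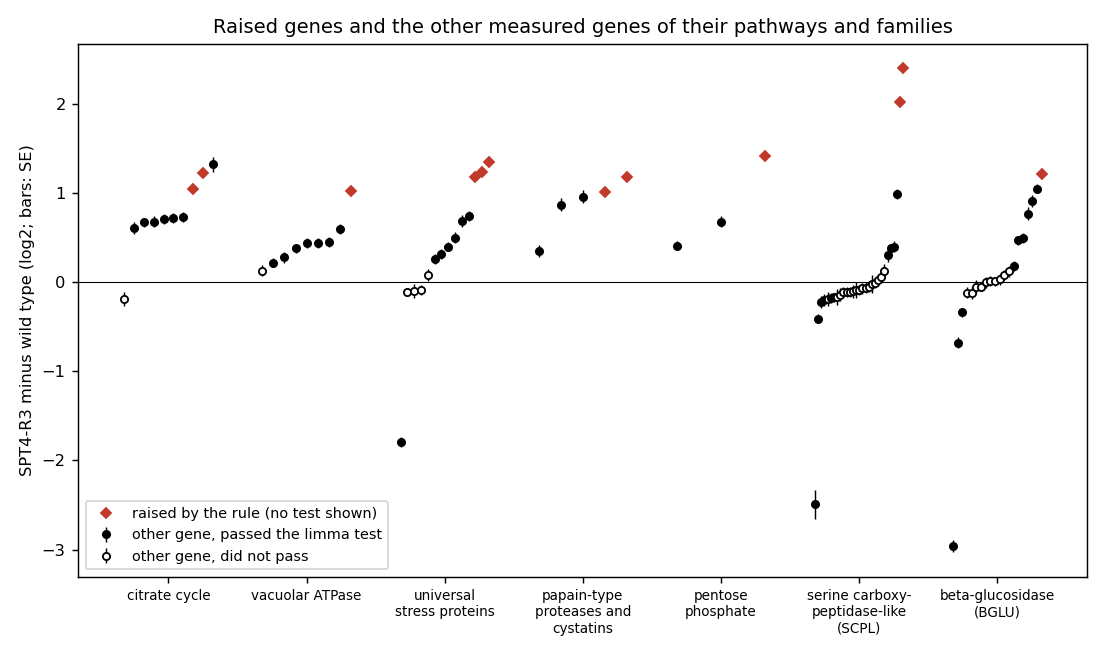
The SPT4-R3 minus wild-type difference in log2 signal for the raised genes (red diamonds, no test shown) and for the other measured genes of 7 pathways or families, with bars giving the SE of the limma fit; filled black circles passed at an adjusted p under 0.05 and open circles did not. Other genes of the citrate cycle, the vacuolar ATPase and the papain and cystatin list are mostly above 0, with medians of 0.70, 0.41 and 0.87, while those of the SCPL and BGLU families spread on both sides, with medians of -0.09 and 0.01.

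5 raised genes were grouped under plastid functions, and genes placed in other groups may work there too. PORB, which reduces protochlorophyllide in the light to make chlorophyll, read 11.96, 12.06 and 12.10 in SPT4-R3, against 10.03, 9.97 and 10.05 in wild type. Its difference of 2.02, or 4.07-fold, makes it one of the 8 probe sets raised by 2 or more. The other matched gene of chlorophyll synthesis, CHLM, the methyltransferase that acts before it, was 0.18 lower, at 12.54 in SPT4-R3 and 12.72 in wild type (difference -0.18, SE 0.0576, limma adjusted p = 0.0252); it did not pass after quantile normalization and was 0.21 higher on the scale of the bioB, bioC and bioD controls. AT2G47390, a plastid glutamyl endopeptidase, was 1.40 higher. AT1G72810, a threonine synthase, was 1.18 higher, and AT2G38550, a membrane protein linked to export of fatty acids, was 1.05 higher. APS4, an ATP sulfurylase that activates sulphate for assimilation, read 10.40, 10.52 and 10.45 in SPT4-R3 and 9.43, 9.48 and 9.41 in wild type, 1.02 apart. Its relative APS3 moved the other way, at 7.82 in SPT4-R3 and 8.30 in wild type (difference -0.49, SE 0.0541, limma adjusted p = 3.53e-05), a call lost on the scale of the bioB, bioC and bioD controls. The sulphite reductase SIR differed by 0.02 (limma adjusted p = 0.822), and on the scale of the bioB, bioC and bioD controls it was 0.41 higher (limma adjusted p = 0.000132).

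3 universal stress proteins, small proteins with a nucleotide-binding fold that bacteria and plants make under stress, were raised. AT3G53990 read 10.36, 10.30 and 10.41 in SPT4-R3, against 8.96, 9.05 and 9.0 in wild type, a difference of 1.35. AT3G17020 read 11.55, 11.34 and 11.46 in SPT4-R3 and 10.19, 10.25 and 10.18 in wild type, and AT1G68300 read 10.08, 10.02 and 10.04 in SPT4-R3 and 8.76, 8.93 and 8.91 in wild type. They were 1.24 and 1.18 higher, with no array of one genotype inside the range of the other, as the rule demands. Of the 11 other measured genes of the family 6 were higher, 1 was lower and 4 did not pass, with a median of 0.26. On the scale of the bioB, bioC and bioD controls, where most plant probe sets were called higher, 10 were higher. RD2, a dehydration-responsive member, rose by 0.74 (SE 0.059, limma adjusted p = 3.21e-06), AT1G09740 by 0.69 (SE 0.0669, limma adjusted p = 1.33e-05) and AT3G62550 by 0.50 (SE 0.0581, limma adjusted p = 5.13e-05). AT3G11930 stood apart and fell to 9.62 in SPT4-R3, against 11.41 in wild type (difference -1.79, SE 0.0583, limma adjusted p = 8.55e-09), on every scale tried. The family thus held members of at least 1 log2 unit in both directions.

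3 raised genes encode enzymes of the cell wall or of glycosides. PRXR1, a class III peroxidase of the kind secreted to the wall, is the brightest named gene of the set, at 12.95, 12.88 and 13.02 in SPT4-R3, against 11.95, 11.96 and 11.90 in wild type. With a difference of 1.01 it lies just inside the limit. The beta-glucosidase BGLU44 read 10.12, 10.07 and 9.94 in SPT4-R3 and 8.62, 8.95 and 8.93 in wild type, where replicate 1 was the lowest, and was 1.21 higher. AT1G78060, a beta-xylosidase-type glycoside hydrolase, was 1.02 higher. Of the 19 other beta-glucosidases 6 were higher, 3 were lower and 10, all averaging below 6 in both genotypes, did not pass, with a median of 0.01. On the scale of the bioB, bioC and bioD controls, where most plant probe sets were called higher, 16 were higher and 2 lower. BGLU25 rose by 1.05 (SE 0.051, limma adjusted p = 1.05e-07) from below the level limit, with 8.38 in SPT4-R3 and 7.33 in wild type. BGLU42 rose by 0.91 (SE 0.0704, limma adjusted p = 2.67e-06). BGLU33 fell to 5.98 in SPT4-R3, against 8.93 in wild type (difference -2.96, SE 0.0716, limma adjusted p = 1.38e-09).

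A further group joins a lectin, a defensin and a lipid-transfer-type protein, kinds of protein known from plant defence. AT3G16530, a legume-type lectin, read 11.53, 11.57 and 11.55 in SPT4-R3, against 9.15, 9.22 and 9.16 in wild type. It was 2.37 higher, or 5.18-fold. The defensin LCR69 read 11.86, 11.97 and 11.90 in SPT4-R3 and 10.53, 10.46 and 10.48 in wild type, 1.42 apart. Its relative LCR68 rose by 0.46 (SE 0.0716, limma adjusted p = 0.000365). Of the 7 other measured genes with the LCR symbol 1 was higher, 1 was lower and 5, all averaging below 6 in both genotypes, did not pass. On the scale of the bioB, bioC and bioD controls, where most plant probe sets were called higher, 6 were higher and none lower. AT1G48750, of the lipid-transfer type, read 9.08, 9.40 and 9.33 in SPT4-R3 and 8.03, 8.13 and 8.11 in wild type. It was 1.18 higher, had the widest spread of the named genes in SPT4-R3 (SD 0.168) and has the shortest gene of them. The 3 matched genes of a separate lipid transfer list were mixed. AT4G12490 rose by 3.09 (SE 0.0673, limma adjusted p = 7.99e-10) and AT4G12500 by 1.77 (SE 0.0617, limma adjusted p = 1.27e-08). Their wild-type means were low, at 5.52 and 3.68. AT2G45180 was lower in SPT4-R3 (difference -0.72, SE 0.0557, limma adjusted p = 2.58e-06).

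The 4 dehydrogenases and reductases were raised by 1.01 to 1.16. AT5G58490 and AT5G19440 belong to the family of cinnamoyl-CoA and cinnamyl-alcohol reductases and were 1.16 and 1.13 higher. AT5G02240, with an NAD(P)-binding fold, was bright, at 12.47 in SPT4-R3 and 11.35 in wild type. ALDH10A9, a betaine aldehyde dehydrogenase, averaged 10.20 in SPT4-R3 and 9.18 in wild type, 1.01 apart. Of 7 other aldehyde dehydrogenases 3 were higher, 2 were lower and 2 did not pass. On the scale of the bioB, bioC and bioD controls, where most plant probe sets were called higher, 5 were higher and 1 lower. The other ALDH10 gene, ALDH10A8, rose by 0.28 (SE 0.0532, limma adjusted p = 0.00155), and ALDH7B4 fell by 0.74 (limma adjusted p = 4e-06).

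Smaller groups completed the set. The esterases and hydrolases were the carboxylesterase AT2G03550 (1.2 higher), the GDSL-type lipase AT1G28580 (1.19) and the dienelactone hydrolase AT2G32520 (1.04). Both measured genes of the plant cyclase family were raised: AT4G34180 read 10.19, 10.22 and 10.21 in SPT4-R3 and 8.69, 8.90 and 8.81 in wild type, 1.41 apart, and AT4G35220 was 1.02 higher. The glycine-rich proteins AT5G46730 and AT4G21620 were 1.36 and 1.2 higher.

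11 named genes were placed in no group. WLIM1, which bundles actin filaments, read 10.43, 10.54 and 10.47 in SPT4-R3 and 9.09, 9.14 and 9.10 in wild type, 1.37 apart. The WLIM2 pair split: WLIM2a rose by 1.04 (SE 0.0611, limma adjusted p = 3.96e-07) at a wild-type mean of 6.99, against 8.03 in SPT4-R3, and WLIM2b was 0.35 lower (difference -0.35, SE 0.0617, limma adjusted p = 0.000928), a call lost on the scale of the bioB, bioC and bioD controls. AT3G14100, an RNA-binding protein that binds oligouridylate, was 1.16 higher, with 11.33 in SPT4-R3 and 10.17 in wild type. AT5G48480, of the glyoxalase type, was 1.3 higher. AT4G13360, an enzyme of the crotonase family, and AT5G42850, of the thioredoxin superfamily, were each 1.1 higher, and AT4G19450, a transporter of the major facilitator type, was 1.07 higher. The other 5, AT3G27230, AT5G08400, AT5G03460, AT3G02910 and AT3G62580, have no role given here and were 1.05 to 1.23 higher.

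The lists of 14 pathways and gene families, a separate set, held none of the raised genes. Beside stress, hormone and nutrient lists they included the circadian clock, glutathione S-transferases, lipid transfer proteins, glucosinolates and flavonoids. The raised AT1G48750, of the lipid-transfer type, is not among the 11 entries of the lipid transfer list. The lists had 274 entries, of which 40 in 13 lists could be matched. Only those of the 40 with a wild-type mean of at least 8 could have been taken. The rule took 1.81% of well-expressed probe sets, so finding none among so few says nothing about these pathways. Of the 40, limma called 16 higher, 16 lower and 8 neither, with a median difference of 0.03. Of all probe sets it called 26.4% higher and 23.5% lower. On the scale of the bioB, bioC and bioD controls 24 of the 40 were higher and 11 lower, but most of all plant probe sets were called higher there. The largest rise among them, that of the late-embryogenesis gene M17, started from a dim signal, with 9.0 in SPT4-R3 and 3.68 in wild type, and so fell outside a rule that asks for a well-expressed wild-type level. The fermentation gene PDC2 did likewise, with 9.37 in SPT4-R3 and 6.47 in wild type. Both were picked out after their values were seen.

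Gene length and position were also compared by eye. The 47 named genes had a median length of 2216 bases in RefSeq's assembly TAIR10.1 (quartiles 1602 and 2927), beside 2250 bases (1671 and 3103) for 3291 well-expressed genes. They ran from the 544 bases of AT1G48750 to the 6254 bases of PWD. The lowered genes were shorter, with a median of 1906 bases (1277 and 2549) over 187 genes. On the chromosomes, 6 of 831 well-expressed genes were raised on chromosome 1 (0.722%), 5 of 481 on chromosome 2 (1.04%), 12 of 672 on chromosome 3 (1.79%), 10 of 482 on chromosome 4 (2.07%) and 14 of 764 on chromosome 5 (1.83%). No raised gene was a direct neighbour of another; the nearest pairs, AT5G08400 with scpl35 and AT3G27230 with SDH2-1, were 18 places apart in gene order. These are descriptions without a test, over the genes the annotation names.

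**Figure D5:**
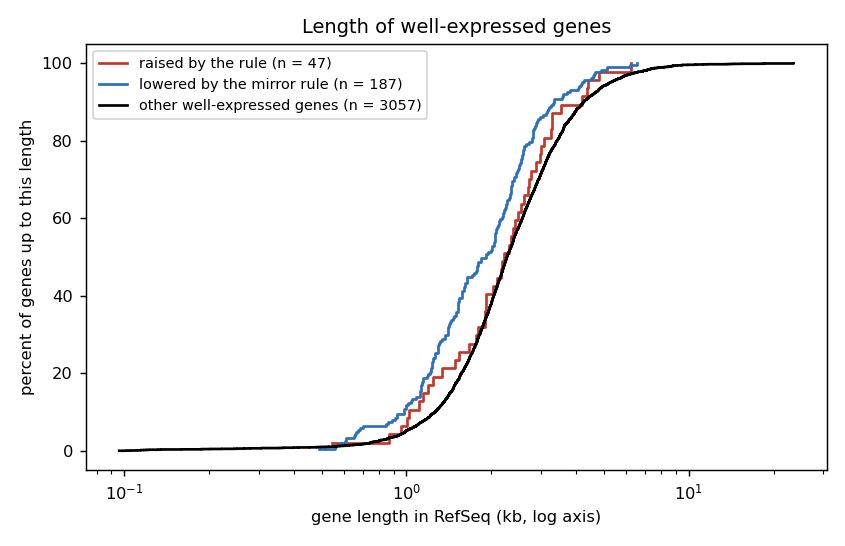
Cumulative percentage of genes against gene length in RefSeq, in kb on a log axis, for the 47 raised genes (red), the 187 lowered genes (blue) and 3057 other well-expressed genes (black). The raised genes run close to the other genes, with medians of 2216 bases for the raised and 2250 bases for all well-expressed genes, and the lowered genes lie to the left with a median of 1906 bases.

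Several named genes lie next to the limits of the rule. Just inside the wild-type limit were AT1G48750 and scpl35 (wild-type mean 8.09 each) and AT3G02910 (8.10), and just outside were FLDH, which averaged 9.47 in SPT4-R3 and 7.98 in wild type, AT3G52470 (9.11 in SPT4-R3 and 7.97 in wild type) and AT3G25120 (9.14 in SPT4-R3 and 7.96 in wild type). Just inside the difference limit were PRXR1, AT5G47550 and ALDH10A9 (1.01 each), and just outside were SCPL34, AT3G45310 and AT2G15690 (0.99 each).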

How the data were processed

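The deposited table held 1 log2 value per probe set and array, read as log2 signals from their range. They were made by the authors with Affymetrix Expression Console, per the submitters' processing notes; its algorithm and normalization are not given in the sources read. Precision is limited by the number of arrays, 3 per genotype. The 64 array controls were set aside. Of 22746 plant probe sets 13513 had 1 gene in the annotation, 503 several and 8730 none, and only the first kind was named. RefSeq supplied symbols, gene lengths and gene order. A gene's brightest probe set stood for it.

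Values were compared as deposited with limma 3.58.1 in R 4.3.3, without a filter, two-sided, adjusted by Benjamini-Hochberg over all plant probe sets at a threshold of 0.05. In simulated data limma found 12 of 50 changes of 0.25, 39 of 50 of 0.5, and all 50 of 1.0 and of 2.0. A gene that did not pass may thus have changed by a small amount. Far fewer probe sets changed in the simulation than were called here, so its rates need not hold for these data. Named were the raised genes with 1 gene, up to 3 others in each direction of a pathway, and those nearest the limits; genes beyond these were chosen after their values were seen. The raised genes and all lists were chosen with earlier results of these data known. Sequences and promoter motifs were not analysed here. Alternatives were other scalings (quantile, array median, bioB, bioC and bioD controls), limits, variance model, removal of the dimmest 30%, replicate number as a block, and each array left out.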

Additional observations from a re-analysis of the deposited data

How the results depend on the processing

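With 1 array left out 42 to 47 of the 47 named genes kept a difference of at least 1, with 42 without wild type replicate 3 and 43 without SPT4-R3 replicate 2; that they stay higher follows from the rule. The 121 probe sets became 258 with a difference limit of 0.8 and 59 with one of 1.2. Centred on the bioB, bioC and bioD controls the rule took 497, of which 108 were among the 121, and its mirror 207 in place of 425 (the mirror's alternatives were chosen after seeing the data). On that scale the named genes differed by 1.41 to 2.79, and over all probe sets 17406 were called higher and 1589 lower, against 6007 and 5344. Which scale is nearer the truth was not tested. Leaving out 1 array gave 116 to 131 members, 5326 to 5722 probe sets higher and 4633 to 5060 lower, and 15 to 16 pathway genes in each direction. Other settings kept every count over all probe sets and pathway lists within 1.5 times. SDH1-2 became a call lower under array median centring, trend and robust settings, the replicate block, and without SPT4-R3 replicate 1 or wild type replicate 3. Same-numbered arrays did not deviate together (correlations -0.24, -0.126 and -0.0645). With 3 arrays per genotype this shows no pairing by number but cannot exclude it. The replicate block gave 5663 higher and 5007 lower. Without a detection call, signals near the trp controls may be background. Of the 121 probe sets 70 have no gene listed and 4 several, so functions cover 47.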
